A study of Mus musculus with 8 samples.

Results

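The genes that carry lanosterol to cholesterol were followed in mouse adrenal glands lacking Siah1a, one of the SIAH enzymes that attach ubiquitin to proteins, with and without adrenocorticotropic hormone (ACTH). Lanosterol is the first cyclic sterol of cholesterol synthesis, and the 8 genes chosen by name for the steps that follow it were Cyp51, Tm7sf2, Msmo1, Nsdhl, Hsd17b7, Ebp, Sc5d and Dhcr7, of 18846 gene symbols in the deposited files. All 8 passed the filter on low counts. The groups were Siah1a -/- glands 1 hour after an intraperitoneal dose of 100 µg/kg ACTH, untreated Siah1a -/- glands, wild-type glands after the same injection, and untreated wild-type glands. Each group held 2 animals of the 129SVEV strain, 1 labelled male and 1 labelled female, and each of the 8 libraries came from 1 gland. How the Siah1a allele was made, the ages of the animals and any vehicle injection are not given in the sources used here. Injection and ACTH can therefore not be told apart.

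The enzymes of these steps sit in the membrane of the endoplasmic reticulum and trim, reduce and rearrange the sterol ring until cholesterol remains. Their genes are known targets of SREBP2, a transcription factor that is released from the endoplasmic reticulum when sterols are scarce, and cholesterol is the substrate of all adrenal steroid hormones. Adrenal cortex also takes up cholesterol from lipoproteins and stores it as esters, and ACTH is known to draw on these stores.

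The starting material set some limits. Library totals ran between 8020111 and 29568950 estimated counts. Siah1a itself stood at 17.4 to 25.2 CPM (counts scaled to a common library size) in knockout libraries and at 26.1 to 33.1 CPM in wild type; without the position of the deletion this is no check of the labels. Markers of the cortex were abundant in all libraries, with 30093 to 37638 CPM summed over 5 genes in knockout and 21944 to 35637 CPM in wild type. One wild-type library, untreated and labelled male, stood at 1431 CPM over 5 kidney markers against at most 7.88 CPM elsewhere, and is called the kidney-containing library here. It went against its sex label, with Xist at 388 CPM and no count of Uty or Kdm5d. The label was kept in fits and pairs, although by these markers the sexes were not balanced between the genotypes. Another library, from wild type given ACTH and labelled female, stood at 63298 CPM over 7 liver markers against at most 694.9 CPM elsewhere, and is called the liver-containing library. The genotype difference of the 8 genes is given with and without these libraries, and some other counts are given or described without them. Counts over the gene lists and counts of groups that do not overlap are given with all libraries only. Without both, wild type keeps, by label, an untreated female and a male given ACTH. Treatment and sex label can then not be told apart within wild type.

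The start regions of these genes were read from RefSeq (build GRCm38.p6, the assembly also called mm10) as windows of 250 bases before and 50 after each annotated start. They are shown because the estimates of 7 genes were lower in the knockout while that of Dhcr7 was not. All 8 genes had a window, and Dhcr7 had 3. The search covered 4 motifs on both strands, and the motifs were chosen with these sequences in view: the SREBP element TCACNCCAC, the element TCACCTCA known from the Cyp51 promoter, the NF-Y box CCAAT and the GC box GGGCGG bound by Sp1. Matches of different motifs may overlap. Matches are printed in capitals, 5′ to 3′ along the gene's strand.
Cyp51, chr5:4104648-4104947, minus strand: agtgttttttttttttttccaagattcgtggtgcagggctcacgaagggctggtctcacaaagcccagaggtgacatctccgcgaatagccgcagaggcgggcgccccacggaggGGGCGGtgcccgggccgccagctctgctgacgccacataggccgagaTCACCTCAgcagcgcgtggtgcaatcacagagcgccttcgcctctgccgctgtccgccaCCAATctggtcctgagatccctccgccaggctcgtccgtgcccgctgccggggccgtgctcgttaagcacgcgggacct
Hsd17b7, chr1:169969156-169969455, minus strand: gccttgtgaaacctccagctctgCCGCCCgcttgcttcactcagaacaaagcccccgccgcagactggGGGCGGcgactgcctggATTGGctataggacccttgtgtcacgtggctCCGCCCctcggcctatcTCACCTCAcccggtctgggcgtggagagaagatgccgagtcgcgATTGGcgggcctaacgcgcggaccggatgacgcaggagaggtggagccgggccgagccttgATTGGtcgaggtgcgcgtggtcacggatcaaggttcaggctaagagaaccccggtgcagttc
Tm7sf2, chr19:6067801-6068100, minus strand: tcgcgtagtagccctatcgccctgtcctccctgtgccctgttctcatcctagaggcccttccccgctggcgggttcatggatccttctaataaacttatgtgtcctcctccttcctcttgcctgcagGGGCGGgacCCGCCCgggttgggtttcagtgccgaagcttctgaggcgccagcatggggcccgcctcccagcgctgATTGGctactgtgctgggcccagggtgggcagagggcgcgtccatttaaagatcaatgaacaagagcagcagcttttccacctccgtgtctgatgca
Dhcr7 upstream start, chr7:143822917-143823216, plus strand: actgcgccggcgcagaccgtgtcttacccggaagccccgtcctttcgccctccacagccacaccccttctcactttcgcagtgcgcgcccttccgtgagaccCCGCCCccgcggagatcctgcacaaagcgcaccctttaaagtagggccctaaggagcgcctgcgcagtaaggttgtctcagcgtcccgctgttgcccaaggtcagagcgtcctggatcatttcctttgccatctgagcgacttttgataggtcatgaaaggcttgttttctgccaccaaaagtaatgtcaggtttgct
Dhcr7 downstream start, chr7:143829964-143830263, plus strand: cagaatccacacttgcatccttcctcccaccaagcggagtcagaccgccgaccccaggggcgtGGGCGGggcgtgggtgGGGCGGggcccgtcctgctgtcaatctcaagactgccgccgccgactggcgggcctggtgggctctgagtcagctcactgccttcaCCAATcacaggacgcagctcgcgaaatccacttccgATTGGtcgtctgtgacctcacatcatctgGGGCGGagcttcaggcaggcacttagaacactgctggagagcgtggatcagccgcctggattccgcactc

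The element TCACCTCA was present in the windows of Cyp51, 88 bases before the start, and of Hsd17b7, 117 bases before it, that is in 2 of 8 windows when Dhcr7 is represented by the start of its counted transcript. The share over all 32851 windows of the same length was 1.17%. The Cyp51 match was given in advance, since the element is known from that promoter. The motifs were chosen with these sequences in view, so no share was tested against that of all windows. None of the 8 windows held TCACNCCAC, against 1.24% of all windows. The GC box was present in 8 of the 8 windows, that of the counted Dhcr7 start included (35.7% of all windows). A CCAAT box was present in 7 of the 8 windows (37.4% of all windows). The exception was the upstream start of Dhcr7, from which the transcript counted in the files begins, whereas the start of Dhcr7 that lies 7047 bases downstream, shown above, held 2 CCAAT boxes and 3 GC boxes. The remaining Dhcr7 window, 232 bases downstream of the counted start and not printed, held 0 matches of the 4 motifs. The counts are given per transcript with only 1 transcript for each of the 8 genes, so they do not show which Dhcr7 start was used. These matches are descriptions of letters and not of binding.

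Per unit of transcript length, Dhcr7 and Msmo1 stood far above the others. In the authors' RPKM (reads scaled to transcript length and library size), Dhcr7 averaged 261 ± 84.4 in knockout glands and 213 ± 36.5 in wild type (SD, n = 4 each). Msmo1 averaged 97.4 ± 29.9 RPKM in knockout and 209 ± 33.1 RPKM in wild type, so the pair lay within each other's spread in wild type and apart in the knockout. Cyp51, Ebp, Sc5d and Nsdhl followed in wild type at 42.2, 34.2, 32.1 and 24.3 RPKM, and the SDs of 8.35, 10.1, 8.48 and 9.13 RPKM overlap between neighbours in this order. Tm7sf2 stood at 19.6 ± 3.26 RPKM in wild type. Hsd17b7 was the lowest of the 8 at 10.5 ± 1.39 RPKM. In knockout glands Tm7sf2 at 3.55 ± 1.37 RPKM and Hsd17b7 at 4.18 ± 1.37 RPKM were the lowest, within each other's spread.

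The first comparison set the 4 Siah1a -/- libraries against the 4 wild-type libraries, averaged over treatment and sex label. The estimates of 7 genes were lower in the knockout, by 1.76-fold (Sc5d) to 5.58-fold (Tm7sf2), and that of Dhcr7 was not. In edgeR's quasi-likelihood test none of the 8 genes passed a Benjamini-Hochberg adjusted p of 0.05 over all 15361 genes tested, with adjusted p from 0.0933 (Tm7sf2) to 0.178 (Sc5d) among those 7 and 0.714 for Dhcr7. This test called 4 genes in all, or 0.026%. At an unadjusted p under 0.05, the 7 genes were lower, against 8.11% of all genes lower at that p. DESeq2 called these 7 lower and not Dhcr7 (3.96% of all genes called lower), and limma-voom called 3 lower, Cyp51, Tm7sf2 and Msmo1 (0.371% of all genes). With the kidney-containing and liver-containing libraries left out, the 7 genes were again lower at an unadjusted p under 0.05 in edgeR (4.36% of all genes). DESeq2 then called 5 of the 8 (1.81% of all genes called, in either direction), with Ebp and Sc5d no longer among them (adjusted p = 0.601 and 0.128). By edgeR's estimates without these libraries, those 5 genes ran from -1.22 (Msmo1) to -2.54 (Tm7sf2) on the log2 scale. The median log2 fold change over the 8 genes was -1.24, against -0.04 over all genes tested.

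**Figure D1:**
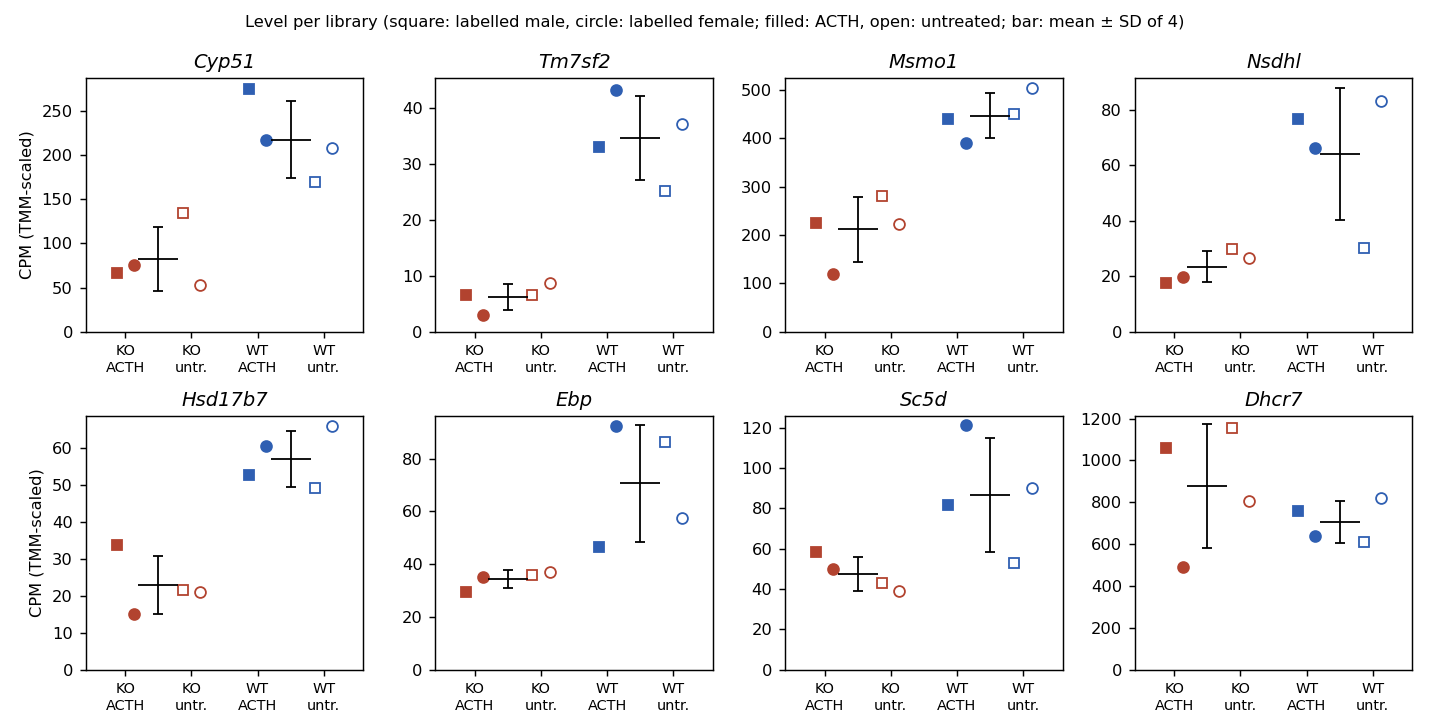
Level of each gene in every library, in CPM on linear axes that start at 0; squares are libraries labelled male, circles female, filled symbols ACTH, open symbols untreated, red knockout and blue wild type, and bars give the mean ± SD of 4 libraries. The 4 knockout libraries lie below the 4 wild-type libraries for 6 genes, overlap for Sc5d, and spread widely around wild type for Dhcr7.

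Cyp51 (chr5:4081145-4104746, mm10, GENCODE M21 annotation, minus strand), the cytochrome P450 that removes a methyl group from lanosterol as the first step, stood at 67.0, 75.3, 134 and 52.5 CPM in knockout libraries, in the order ACTH male, ACTH female, untreated male and untreated female, and at 275, 217, 170 and 208 CPM in wild type. All knockout libraries were below all wild-type libraries, and the untreated knockout male was the highest of the knockout. On the log2 scale the fitted difference was -1.44 (SE 0.29). Cyp51 shares 166 bases with Akap9 on the opposite strand, and the log2 fold change of Akap9 was 0.04.

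Tm7sf2 (chr19:6062821-6068373, minus strand), a reductase that acts on the double bond left by that step, had the largest difference of the 8. It stood at 6.54, 3.06, 6.58 and 8.77 CPM in knockout libraries, in the order ACTH male, ACTH female, untreated male and untreated female, and at 33.0, 43.2, 25.2 and 37.0 CPM in wild type. The groups did not overlap, and these values rest on 40 to 108 counts in knockout and 214 to 1131 counts in wild type. The fitted log2 fold change was -2.48 (SE 0.39). The annotated gene span of Tm7sf2 shares 532 bases at its start with Vps51 on the same strand. By its nearest annotated start, the counted transcript begins close to the inner edge of this stretch. Only reads in the small shared part could count for either gene. Vps51 itself stood at 20.0 to 31.3 CPM in knockout and 23.3 to 28.3 CPM in wild type.

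The next genes act together on the methyl groups of the ring. Msmo1 (chr8:64718139-64733792, minus strand), the methylsterol oxidase that starts their removal, stood at 226, 119, 280 and 222 CPM in knockout libraries (ACTH male, ACTH female, untreated male, untreated female) and at 441, 391, 450.1 and 505 CPM in wild type. Its knockout and wild-type values did not overlap, and the ACTH-treated knockout female was the lowest. Its log2 fold change was -1.13 (SE 0.20).

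Nsdhl (chrX:72918557-72958514, plus strand), an X-linked dehydrogenase of the same step, stood at 17.7, 19.8, 29.8 and 26.5 CPM in knockout and at 76.7, 66.0, 30.0 and 83.1 CPM in wild type, in that order. Knockout was below wild type in all libraries, but the kidney-containing library was level with the highest knockout library, and the other wild-type libraries were at least 66.0 CPM. The log2 fold change was -1.45 (SE 0.35) with that library and -1.81 without it, where the gene passed in edgeR (adjusted p = 0.0215). The part of kidney tissue in its Nsdhl level was not tested.

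Hsd17b7 (chr1:169949535-169969241, minus strand), the reductase that completes each round of methyl removal and is also known to convert estrone to estradiol, stood at 33.7, 14.9, 21.7 and 21.0 CPM in knockout libraries (ACTH male, ACTH female, untreated male, untreated female) and at 52.6, 60.4, 49.0 and 65.8 CPM in wild type. No knockout library reached the lowest wild-type library, and the log2 fold change was -1.34 (SE 0.28).

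The late steps move a double bond around the ring and saturate it. Ebp (chrX:8185329-8193512, minus strand), the X-linked sterol isomerase that begins them, stood at 29.5, 35.3, 35.8 and 37.2 CPM in knockout and at 46.6, 92.3, 86.4 and 57.5 CPM in wild type, in the order ACTH male, ACTH female, untreated male and untreated female. Its 2 highest values belonged to the liver-containing and the kidney-containing library. The log2 fold change was -1.04 (SE 0.25) over all libraries and -0.60 without those 2, a difference that edgeR did not call (adjusted p = 0.575). Sc5d (chr9:42251595-42264256, minus strand), the desaturase that makes the substrate of Dhcr7, stood at 58.3, 50.1, 42.9 and 39.0 CPM in knockout and 81.4, 121, 52.8 and 89.8 CPM in wild type. Here the groups overlapped through the kidney-containing library, and the log2 fold change was -0.82 (SE 0.21).

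Groups of 4 that did not overlap, with the knockout lower, were seen in 6 of the 8 genes and in 4.71% of all genes tested. All 7 genes other than Dhcr7 were lower in the knockout in each of the 4 pairs matched by label, as were 12.7% of all genes. The untreated pair with male labels, whose wild-type member is the kidney-containing library, showed the least, with a median log2 ratio of -0.69 over the 7 genes. The medians of the ACTH male, ACTH female and untreated female pairs were -0.96, -1.72 and -1.65.

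**Figure D2:**
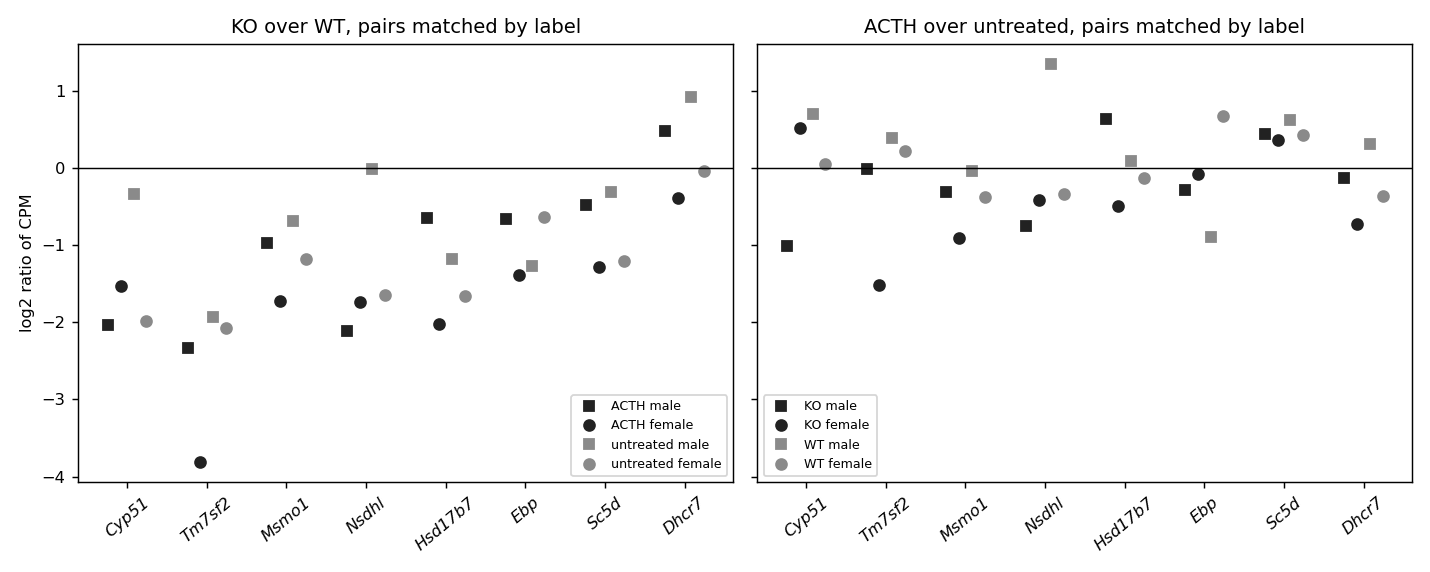
Log2 ratio of CPM in pairs of libraries matched by label, for knockout over wild type (left, 4 pairs by treatment and sex label) and ACTH over untreated (right, 4 pairs by genotype and sex label); the line marks equal levels. On the left all points of the 7 genes other than Dhcr7 lie below the line, and on the right Sc5d lies above it in 4 of 4 pairs and Msmo1 below it in 4 of 4.

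Dhcr7 (chr7:143823145-143848410, plus strand), the reductase that yields cholesterol from 7-dehydrocholesterol, did not share this difference. It stood at 1062, 489, 1155 and 806 CPM in knockout libraries (ACTH male, ACTH female, untreated male, untreated female), against 759, 639, 609 and 823 CPM in wild type. The knockout libraries held both the highest values and the lowest, and enclosed the wild-type range. For Dhcr7 the log2 fold change was 0.25 (SE 0.24), with a 95% interval from -0.31 to 0.80, or 0.805-fold to 1.75-fold. None of the estimates of the other 7 genes lies in that interval. In the pairs labelled male Dhcr7 was higher in the knockout (log2 ratios 0.48 after ACTH and 0.92 untreated), and in the pairs labelled female it was lower (-0.39 after ACTH and -0.03 untreated). The wild-type member of the untreated pair labelled male is the kidney-containing library, which went against its sex label. A pattern by sex can therefore not be read from these pairs. The log2 fold change of Dhcr7 was 0.00 without the kidney-containing library, and 0.08 without this and the liver-containing one.

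A ratio taken within each library needs no scaling between libraries. Dhcr7 had 2.42, 1.54, 2.10 and 1.98 counts for each count of the other 7 genes together in knockout libraries (ACTH male, ACTH female, untreated male, untreated female), and 0.754, 0.646, 0.706 and 0.786 in wild type. The lowest knockout ratio was above the highest wild-type ratio. On the log2 scale the means were 0.99 ± 0.27 in knockout and -0.47 ± 0.12 in wild type (SD, n = 4 each), a difference of 1.46, 1.44 with RPKM in place of counts and 1.37 without the kidney-containing and liver-containing libraries. By RPKM, Dhcr7 made up 65.1%, 55.5%, 62.5% and 59.4% of the 8 genes' sum in knockout libraries and 38.2%, 33.9%, 35.1% and 38.1% in wild type, in the same order. The summed level of the other 7 genes was 429 ± 96.4 CPM in knockout and 977 ± 79.2 CPM in wild type. No p is given for these ratios, since the split into Dhcr7 and the rest was made with the values known.

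**Figure D3:**
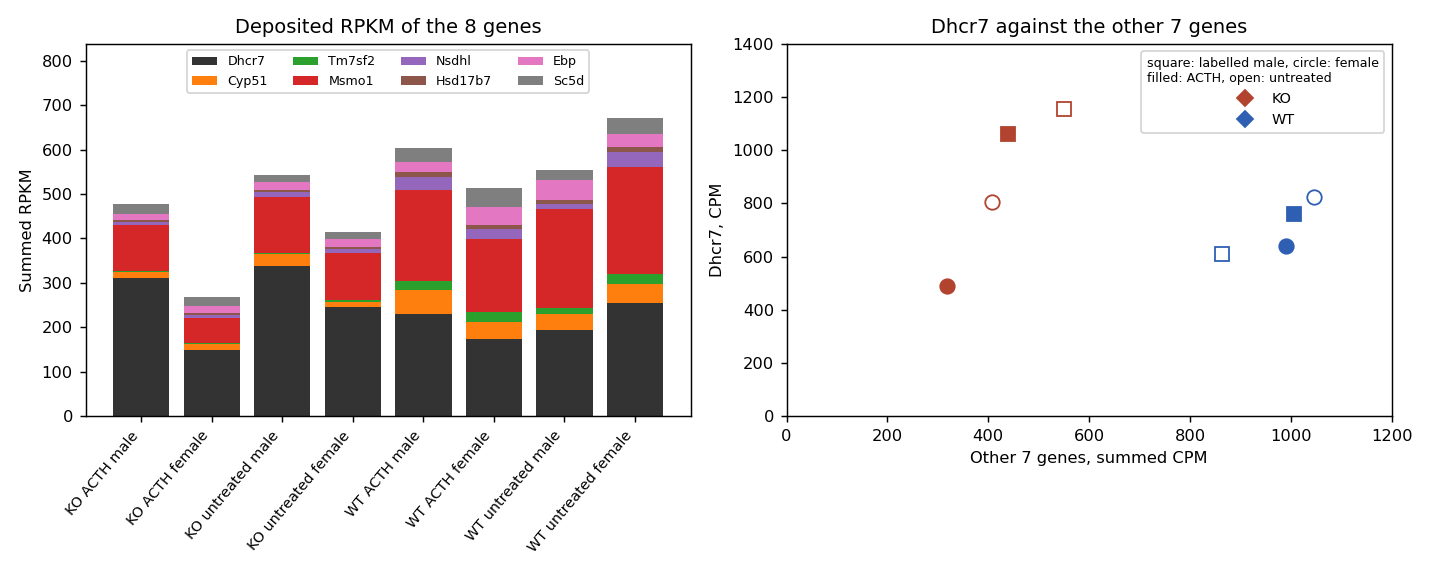
Left, deposited RPKM of the 8 genes stacked per library, with Dhcr7 in black at the base; right, Dhcr7 against the summed CPM of the other 7 genes, with red for knockout, blue for wild type, squares for libraries labelled male, circles for female, filled for ACTH and open for untreated. The other 7 genes total at most 551 CPM in knockout libraries and at least 863 CPM in wild type, whereas the knockout values of Dhcr7 span the wild-type range.

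Within glands given ACTH alone, the 7 genes other than Dhcr7 had log2 fold changes from -0.87 (Sc5d) to -2.96 (Tm7sf2), and Dhcr7 had 0.10 (SE 0.36). Here edgeR called 0 of the 8 and 0.00651% of all genes, and 7 of the 8 were lower at an unadjusted p under 0.05 (5.42% of all genes). The count was lower without the liver-containing library, without the knockout male or female given ACTH, or without both the kidney-containing and liver-containing libraries. Each of these fits leaves 1 library in a group. DESeq2, with all libraries, called 4 of the 8 lower, namely Cyp51, Tm7sf2, Msmo1 and Nsdhl (2.21% of all genes called lower). In untreated glands the same 7 genes had log2 fold changes from -0.76 (Sc5d) to -2.02 (Tm7sf2), and Dhcr7 had 0.39 (SE 0.36). In edgeR 0 of the 15361 genes (0.0%) passed there, and 6 of the 8 genes were lower at an unadjusted p under 0.05 (all but Nsdhl and Dhcr7), as were 2.64% of all genes. This count rested on single libraries. It was lower without the untreated knockout female or male, without the untreated wild-type female or without the wild-type male given ACTH. Each of these fits leaves 1 library in a group. Without the untreated wild-type female, the log2 fold change of Dhcr7 was 0.98 (SE 0.35). The only untreated wild-type library in that fit is the kidney-containing one, the lowest of wild type for Dhcr7 at 609 CPM. With all libraries, DESeq2 called 1 of the 8, Tm7sf2 (adjusted p = 0.0488), and 0.436% of all genes as lower. A test of whether the genotype difference itself differed between treatments called 0 of the 15361 genes in edgeR (0.0%), with 283 (1.84%) at an unadjusted p under 0.05 and 8 (0.0521%) called by DESeq2, none of them among the 8 genes described. For the 8 genes its unadjusted p ran from 0.152 (Nsdhl, log2 difference -1.02, 95% interval -2.51 to 0.48) to 0.883 (Ebp), so a larger genotype difference after ACTH was not shown, nor was its absence. The unadjusted p of this test was smaller for Nsdhl without the untreated wild-type female and for Cyp51 without the untreated knockout female. It was also smaller for Tm7sf2 without the knockout male given ACTH. These fits each leave 1 library in a group, and no p is given for them.

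The next comparison set the 4 libraries from animals given ACTH against the 4 untreated ones, over both genotypes. None of the 8 genes passed in edgeR, where 3 genes (0.0195%) were called, 0 of the 8 had an unadjusted p under 0.05 (6.11% of all genes did), and DESeq2 (0.801% of all genes called) and limma-voom (0.0195%) called 0 of the 8. The log2 fold changes lay between -0.40 and 0.46. Sc5d was at 58.3 and 50.1 CPM in knockout and 81.4 and 121 CPM in wild-type libraries given ACTH (male before female), against 42.9 and 39.0 CPM in untreated knockout and 52.8 and 89.8 CPM in untreated wild type. It was higher after ACTH in 4 of 4 pairs by log2 ratios of 0.36 to 0.63 (fitted log2 fold change 0.46, SE 0.20; edgeR, adjusted p = 0.806). Msmo1 was lower after ACTH in 4 of 4 pairs, by log2 ratios from -0.91 to -0.03, with a fitted log2 fold change of -0.40 (SE 0.20; edgeR, adjusted p = 0.821). Both 95% intervals included 0, at -0.01 to 0.93 for Sc5d and -0.85 to 0.06 for Msmo1.

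These ACTH values moved with single libraries. Without the kidney-containing library, Msmo1, Nsdhl and Dhcr7 were lower at an unadjusted p under 0.05 (2.49% of all genes lower), and without both that and the liver-containing library, Msmo1 and Dhcr7 were (2.34%). The log2 fold change of Msmo1 was -0.56 (95% interval -0.98 to -0.14; edgeR, adjusted p = 0.640) without the kidney-containing library and -0.66 (-1.13 to -0.19; edgeR, adjusted p = 0.780) without both. Sc5d had 0.33 (-0.14 to 0.80) and 0.22 (-0.32 to 0.77) in these fits. Sc5d was higher at an unadjusted p under 0.05 without the knockout female given ACTH, without the untreated knockout male or without the untreated wild-type female. The share of all genes higher at that p was not counted for these fits. None of the 8 genes was called at the adjusted p in any of these fits.

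The other members differed between pairs in direction. Nsdhl had log2 ratios of -0.75 and -0.42 in knockout pairs and 1.36 and -0.33 in wild-type pairs (male before female), and the 1.36 belongs to the pair with the kidney-containing library. Tm7sf2 had -0.01 and -1.52 in knockout and 0.39 and 0.22 in wild type. The knockout female given ACTH was the lowest of all 8 libraries for Tm7sf2, Msmo1, Hsd17b7 and Dhcr7. It was also the lowest in chromaffin markers and the highest in adipocyte markers, whose part in these levels was not tested. Fitted over both genotypes, Dhcr7 had a log2 fold change of -0.23 (95% interval -0.78 to 0.33) and Cyp51 one of 0.02 (-0.64 to 0.68). Within knockout glands alone and within wild-type glands alone, edgeR called 0 of the 15361 genes (0.0%). At an unadjusted p under 0.05 there were 649 genes (4.22%) in knockout and 393 (2.56%) in wild type, with 0 of the 8 among them. In knockout, the unadjusted p was smaller for Msmo1 and Tm7sf2 without the male given ACTH, and for Cyp51 without the untreated female. These genes were lower after ACTH in those fits. In wild type, the unadjusted p was smaller for Nsdhl, there higher after ACTH, without the untreated female. All these fits leave 1 library in a group, and no p is given for them. DESeq2 called 98 (0.638%) in knockout and 37 (0.241%) in wild type, again with 0 of the 8.

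The rest of the pathway was read from lists of genes. The 11 genes of the mevalonate part, which build lanosterol from acetyl-CoA, had negative estimates in the knockout in 11 of 11, with a median log2 fold change of -1.22. Of these 11, edgeR called 0 and had 11 lower at an unadjusted p under 0.05 (8.11% of all genes), DESeq2 called 9 lower (3.96%) and limma-voom 4 (0.371%). DESeq2 did not call Acat2 (adjusted p = 0.0577), a thiolase, or Pmvk (adjusted p = 0.149), the phosphomevalonate kinase. Knockout and wild-type libraries overlapped for Pmvk, at 14.4 to 19.5 CPM in knockout and 16.1 to 57.1 CPM in wild type. They also overlapped for Lss, the lanosterol synthase, at 20.9 to 48.7 CPM in knockout and 43.9 to 87.0 CPM in wild type. Both overlaps came through the kidney-containing library. The other wild-type libraries were at least 23.1 CPM for Pmvk and 69.8 CPM for Lss. Hmgcs1, the cytosolic HMG-CoA synthase, averaged 385 ± 63.4 CPM in knockout and 928 ± 75.8 CPM in wild type (SD, n = 4 each, as for the genes that follow). Fdps, the farnesyl diphosphate synthase, averaged 117 ± 51.1 CPM in knockout and 606 ± 172 CPM in wild type. Idi1, an isomerase of isoprenoid units, averaged 148 ± 62.6 CPM in knockout and 555 ± 129 CPM in wild type. Dhcr7 was thus the one gene with a positive estimate among the 8 and these 11. For ACTH the 11 had a median of 0.04, with none at an unadjusted p under 0.05.

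Of 13 genes of sterol sensing and SREBP processing, 9 were negative in the knockout, the median was -0.26, 0 passed in edgeR, and 3 were lower and 1 higher at an unadjusted p under 0.05 (8.11% and 5.33% of all genes). DESeq2 called 2 of them lower (3.96% of all genes). These were Insig1, which holds SREBPs in the endoplasmic reticulum, at 99.2 ± 27.4 CPM in knockout and 236 ± 92.6 CPM in wild type, and Stard4, a carrier of cholesterol in the cytosol, at 10.2 ± 5.08 CPM in knockout and 46.2 ± 7.47 CPM in wild type. Srebf2, which encodes SREBP2, averaged 40.8 ± 16.5 CPM in knockout and 62.9 ± 18.2 CPM in wild type (log2 fold change -0.69, SE 0.33; edgeR, adjusted p = 0.419). Abca1, which exports cholesterol, stood at 375 ± 138 CPM in knockout and 324 ± 114 CPM in wild type. Mbtps1, a protease that releases SREBPs, stood at 107 ± 14.9 CPM in knockout and 117 ± 16.1 CPM in wild type. Stard4 and Srebf2 were named with their values known.

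Among 8 genes of corticosterone synthesis the median was 0.34, with 6 positive, 0 passing in edgeR and 3 called higher by DESeq2 (2.21% of all genes). Star, which carries cholesterol into mitochondria, averaged 15566 ± 2547 CPM in knockout and 14528 ± 3540.0 CPM in wild type, and Hsd3b1, a dehydrogenase of the steroid pathway, 13704 ± 2281 CPM in knockout and 9179.8 ± 2473 CPM in wild type.

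**Figure D4:**
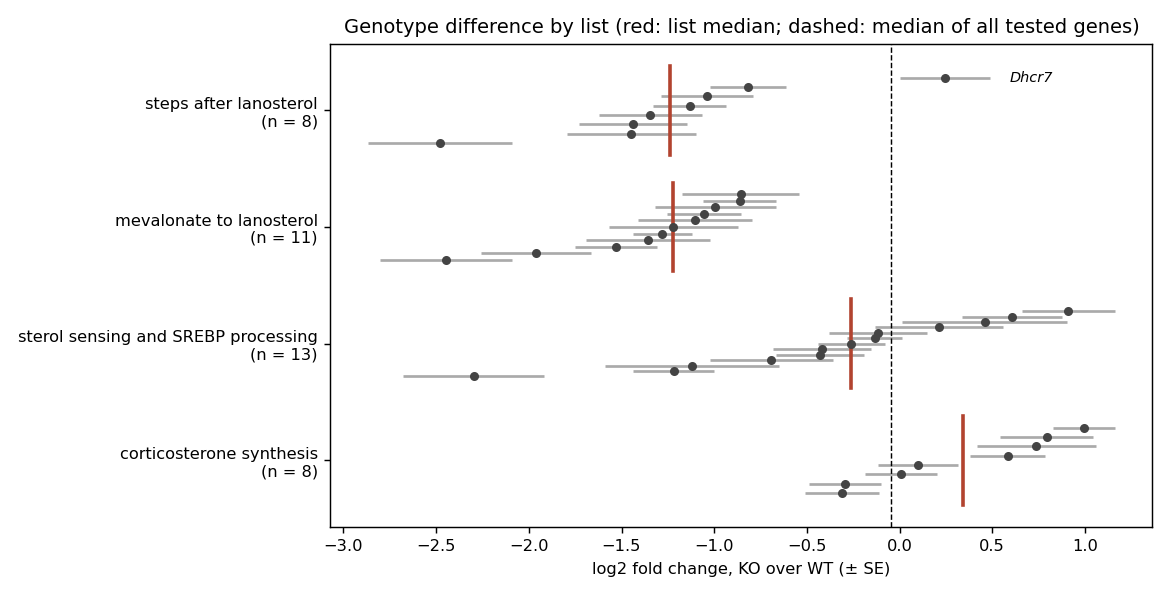
Log2 fold change of knockout over wild type with its standard error for each gene of 4 lists, one point per gene, with the list's median as a red line and the median of all tested genes dashed. The 8 genes after lanosterol have a median of -1.24 with Dhcr7 at 0.25, the 11 genes before it -1.22, the 13 sterol-sensing genes -0.26 and the 8 genes of corticosterone synthesis 0.34.

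Profiles over the 8 libraries were compared by the root mean square difference of log2 CPM after each gene was centred on its own mean. Among the 8 genes, Msmo1 and Hsd17b7 were closest, at 0.31. Dhcr7 and Tm7sf2 were farthest apart, at 1.42, and the gene nearest to Dhcr7 within the set was still 0.71 away. Of all 15361 genes, Idi1 and Insig1 were among the 3 nearest to Cyp51 (0.28 and 0.27). Gpt2 was nearest to Tm7sf2 (0.35), followed by Fdps (0.36), and St3gal1 was nearest to Hsd17b7 (0.23), with Sqle, the squalene epoxidase of the mevalonate list, also among its 3 nearest (0.31). The 3 genes nearest to Dhcr7 were Swsap1, Gas8 and Mvp, at 0.14 to 0.15. Genes of the mevalonate list made up 0 of the 10 nearest for Dhcr7, Ebp and Sc5d, 1 for Tm7sf2, Msmo1 and Nsdhl, 2 for Hsd17b7 and 4 for Cyp51. The nearest gene was Setd1b for Msmo1 (0.18), Sntb1 for Nsdhl (0.15), Samd9l for Ebp (0.18) and Zfp280b for Sc5d (0.22), none of them on the lists used here. These distances describe 8 libraries in 4 groups and carry no p.

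Other cell types moved with genotype in part. The X-zone is an inner layer of the mouse cortex that regresses with age or pregnancy, and over 4 of its markers the sums were 940, 1419, 2393 and 8917 CPM in knockout libraries (ACTH male, ACTH female, untreated male, untreated female) and 7375, 10604, 8981 and 14934 CPM in wild type. Over 5 chromaffin markers of the medulla the sums were 6344, 1800, 7369 and 6029 CPM in knockout, in the same order. In wild type they were 3991, 2465, 1997 and 2774 CPM. Only the knockout female given ACTH lay within or below the wild-type range. Over 6 adipocyte markers the sums were 2191 to 4820 CPM in knockout and 1619 to 4101 CPM in wild type. Over 3 neuron markers the knockout male given ACTH held 216 CPM, against at most 23.7 CPM elsewhere. Over the 5 cortex markers the ranges of the genotypes overlapped, as given above. In whole glands, fewer cells of a type and less RNA per cell cannot be told apart. The part of these cell types in the differences of the 8 genes was not tested.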

How the data were processed

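RNA of 8 mouse adrenal glands was sequenced as single reads of 75 bases from directional libraries, per the labels' protocols. The build mm10 and the tools TopHat2 (2.0.13), Bowtie2 (2.2.5.0), FastQC (0.11) and Partek (6.6) are named without roles in the submitters' processing notes. The authors deposited, for each of 28678 RefSeq transcripts, an estimated count and an RPKM value per gland. The deposited estimated counts were summed per gene symbol to 18846 genes and rounded. The sources used here do not give the treatment of strand or of multiply matching reads.

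With filterByExpr at a minimum count of 10, 15361 genes remained, and TMM factors ran from 0.888 to 1.065. Differences were tested with edgeR's quasi-likelihood test (edgeR 4.0.16, R 4.3.3) with genotype, treatment and sex label, or with a genotype by treatment interaction, over all genes. Calls are at a Benjamini-Hochberg adjusted p under 0.05. DESeq2 (1.42.0), limma-voom (limma 3.58.1), RLE size factors, no filter, a robust fit, no sex label, other models, 1 transcript per gene, and fits without single libraries or without 2 wild-type libraries were alternatives, and DESeq2 without those 2 and an edgeR fit blocked on the 4 pairs matched by label were added after the data were seen. The scripts were tested on simulated data. Standard errors and 95% intervals were derived from the F statistic, and p-values measure the spread between these animals.

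The 8 genes, the 3 gene lists and the marker lists were chosen with earlier results of these data known. Named genes were the 8 members, the 3 genes nearest to each in profile, and the 3 genes of highest mean CPM of each list, of which some are not reported here. Animals are paired by labels only, and no replicate number pairs them. Gene positions are from GENCODE M21 and promoter windows from RefSeq.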

Additional observations from a re-analysis of the deposited data

Results flagged for a closer look

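Among the 4 untreated libraries, Nsdhl in the wild-type library labelled female, at 83.1 CPM, stood apart from the other 3, which held 26.5 to 30.0 CPM. It was marked because its gap to the nearest library was most of the range of the group. In all, 36 groups of 4 libraries were looked at (8 genes and the ratio of Dhcr7 to the others, by genotype and by treatment), and chance marks about 1 group in 20. The untreated group mixes both genotypes. Among wild-type libraries the high value lay beside 66.0 and 76.7 CPM after ACTH, and the low one, at 30.0 CPM, was the kidney-containing library.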

How the results depend on the processing

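For the genotype difference, the estimates of the 7 genes other than Dhcr7 were negative in all alternatives run, and these 7 were lower at an unadjusted p under 0.05 in every edgeR alternative and every fit without 1 library. In these fits, 4.36% (without 2 wild-type libraries) to 9.02% (without the untreated wild-type female) of all genes were lower at that p. The estimate of Dhcr7 ran from 0.00 to 0.47. Of the 8 genes, 0 were called in the edgeR alternatives, 7 by DESeq2, 3 by limma-voom, 5 by DESeq2 without 2 wild-type libraries, and 0 to 1 without single libraries: Cyp51 without the untreated knockout male, Tm7sf2 without the untreated wild-type female and Nsdhl without the kidney-containing library. The cause was not tested. The difference of Dhcr7 to the other genes was 1.36 to 1.58 without single libraries.

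Counts of all genes called moved more. Knockout against wild type gave 41 with no filter, 947 with DESeq2, 108 with limma-voom, 1 without sex label, 22 with a robust fit, 1 with 1 transcript per gene, 288 with DESeq2 without 2 wild-type libraries, 69 with a block of the 4 label-matched pairs, and 0 to 253 without single libraries. ACTH against untreated gave 8 with no filter, 123 with DESeq2, 0 without sex label, 5 with a robust fit, 1 with 1 transcript per gene, 0 without 2 wild-type libraries, 0 in the interaction model, 10 with the block of pairs and 0 to 23 without single libraries. The interaction gave 8 with DESeq2, 2 without 2 wild-type libraries and 0 to 11 without single libraries. Knockout against wild type in untreated glands gave 110 with DESeq2, 27 with the 4 untreated libraries alone and 0 to 95 without single libraries. After ACTH it gave 11 with no filter, 501 with DESeq2, 13 with limma-voom, 0 without sex label, 3 with a robust fit, 0 with 1 transcript per gene, 21 without 2 wild-type libraries, 26 with the 4 treated libraries alone and 0 to 173 without single libraries. ACTH in knockout gave 98 with DESeq2, 2 without 2 wild-type libraries and 0 without single libraries. ACTH in wild type gave 7 with no filter, 37 with DESeq2, 3 with limma-voom, 1 with a robust fit and 0 to 70 without single libraries.

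For ACTH, estimates near 0 changed sign. Cyp51 had -0.0042 without sex label and -0.23 without 2 wild-type libraries, and Hsd17b7 -0.0032 with limma-voom and -0.15 without those libraries. Tm7sf2 had 0.15 and Nsdhl 0.049 with limma-voom. Without single libraries, the log2 fold changes ran from -0.17 to 0.42 for Cyp51, -0.42 to 0.21 for Tm7sf2, -0.46 to 0.20 for Nsdhl, -0.22 to 0.29 for Hsd17b7, -0.56 to -0.20 for Msmo1, -0.35 to 0.049 for Ebp, 0.33 to 0.60 for Sc5d and -0.45 to 0.0067 for Dhcr7. Labels give no replicate numbers. Blocking on the pairs matched by label, added after the data were seen, called 0 of the 8 genes in either comparison. At an unadjusted p under 0.05, 7 were lower in the knockout (7.68% of all genes lower) and 1 (Sc5d) was higher after ACTH. The share of all genes higher after ACTH was not counted for this fit.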
